A study of Mus musculus with 6 samples.

Results

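The transcripts described here are those of 8 genes of the muscle cell membrane: the caveolins Cav1, Cav2 and Cav3, dysferlin (Dysf), the muscle calpain Capn3 and the annexins Anxa1, Anxa2 and Anxa6. They were chosen by gene name, as every probe set of the array annotated with exactly 1 gene symbol and that symbol among the 8, which gave all 8 genes and 16 probe sets, of 18193 genes and 45037 probe sets in all. The arrays compared calf muscle (gastrocnemius with soleus) of mice that overexpress integrin alpha7, the laminin receptor chain of the fibre membrane, with calf muscle of wild type mice. All animals were female, 5 weeks old, not fasted and of SJ6/C57BL6 background. Each genotype had 3 arrays, and each array carried an equal-parts RNA pool of 6 animals, which makes 18 animals per genotype. The labels give neither the promoter nor the form of the transgene, and the titles of the control arrays carry the word intronic without saying what it refers to. The question was whether these membrane genes differ in level when the integrin is overexpressed.

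Caveolae are small flask-shaped pits of the cell membrane that flatten under tension. Caveolin 1 and caveolin 2 build them in endothelium, fat and fibroblasts, and caveolin 3 builds them in muscle fibres. When a fibre membrane tears, calcium entering through the wound drives dysferlin, a calcium-binding protein of vesicles and the fibre membrane, and annexins, which bind membrane lipids in the presence of calcium, to the site where the hole is patched. Calpain 3 is a calcium-activated protease of muscle that is found with dysferlin, and loss of dysferlin, of calpain 3 or of caveolin 3 function causes inherited muscle disease in humans.

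The upstream sequence of Cav3 and Capn3, the members whose products are mainly of striated muscle, is shown with that of the more widely expressed Cav1, so that the muscle motifs of each can be seen. Each run is the 250 bases before a RefSeq transcription start on the plus strand of GRCm38.p6, written 5′ to 3′. Capitals mark the E-box CANNTG, the core bound by myogenic factors such as MyoD, and CTANNNNTAG, a loose form of the site of the muscle factor MEF2. Both motifs read the same on either strand, and no match of the one overlapped a match of the other in these windows.
Cav1, chr6:17306085-17306334: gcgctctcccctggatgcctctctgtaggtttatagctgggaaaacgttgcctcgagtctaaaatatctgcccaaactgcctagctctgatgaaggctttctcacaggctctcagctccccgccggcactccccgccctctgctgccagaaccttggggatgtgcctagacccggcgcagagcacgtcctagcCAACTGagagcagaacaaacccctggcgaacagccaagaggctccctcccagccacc
Cav3, chr6:112459255-112459504: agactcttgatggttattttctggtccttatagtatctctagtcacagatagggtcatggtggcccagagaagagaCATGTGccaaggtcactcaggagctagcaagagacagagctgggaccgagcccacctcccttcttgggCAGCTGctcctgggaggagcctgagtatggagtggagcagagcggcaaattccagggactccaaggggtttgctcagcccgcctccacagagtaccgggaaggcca
Capn3, chr2:120463343-120463592: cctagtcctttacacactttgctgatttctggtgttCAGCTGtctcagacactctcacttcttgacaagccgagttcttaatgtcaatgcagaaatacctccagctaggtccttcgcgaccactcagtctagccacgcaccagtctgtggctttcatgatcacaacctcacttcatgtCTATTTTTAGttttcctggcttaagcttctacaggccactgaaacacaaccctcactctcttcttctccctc
The Cav3 window held 2 E-boxes, starting 174 and 106 bases before the start site, the Cav1 window 1 and the Capn3 window 1. An E-box was present in 66.2% of 32536 promoter windows of this length, so that having 1 is common. The Capn3 window also held 1 MEF2 motif, which 3.22% of the windows held, while the Cav1 and Cav3 windows held none. The window of a further Capn3 start held 1 E-box and no MEF2 motif, and that of a further Cav1 start the same. Both windows of Dysf, and those of Anxa1 and Anxa2, held neither motif, and the Cav2 window held 2 E-boxes and no MEF2 motif. Anxa6 had no entry. These matches describe letters in a window and were not tied to any measurement on the arrays.

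No probe set of the 8 genes passed the test for a difference between transgenic and wild type muscle, and most gave intervals within a factor of 1.5 of no change. Of the 16 probe sets, 14 were bright enough to be tested, meaning a mean above the 40th percentile of all probe sets, a signal of about 21.7. By limma's moderated test 0 of these 14 had an adjusted p under 0.05, where 0.122% of all 27022 tested probe sets passed. At an unadjusted p under 0.05 there were 2, both of Anxa6, against 7.85% of all tested. Wild type and transgenic arrays overlapped for all 14. They did not overlap for 13.4% of all tested probe sets, and 14 probe sets of 8 genes are too few to tell 0 from that share. The median log2 difference, transgenic minus wild type on the log2(signal + 16) scale, was 0.03 over the 14, beside -0.01 over all tested probe sets. The 95% interval of the difference lay within a factor of 1.5 of no change for 11 of the 14, and for the brightest probe set of each of the 8 genes. Intervals are per probe set and are not adjusted for the number tested. Among all tested probe sets the interval lay within that factor for 59.5%, a share not matched for brightness. The brightest probe sets of the 8 genes lay between the 82.7th and 98.8th percentiles of brightness over all probe sets. Where an interval includes no change, the difference cannot be told from none. The intervals of 2 Anxa6 probe sets, 1.02 to 1.42 and 1.02 to 1.40, lay within that factor but left out no change. In the same fit Itga7 itself, the overexpressed gene, ran from 254 to 313 in wild type and from 2072 to 2498 in transgenic muscle, which checks the labels.

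**Figure D1:**
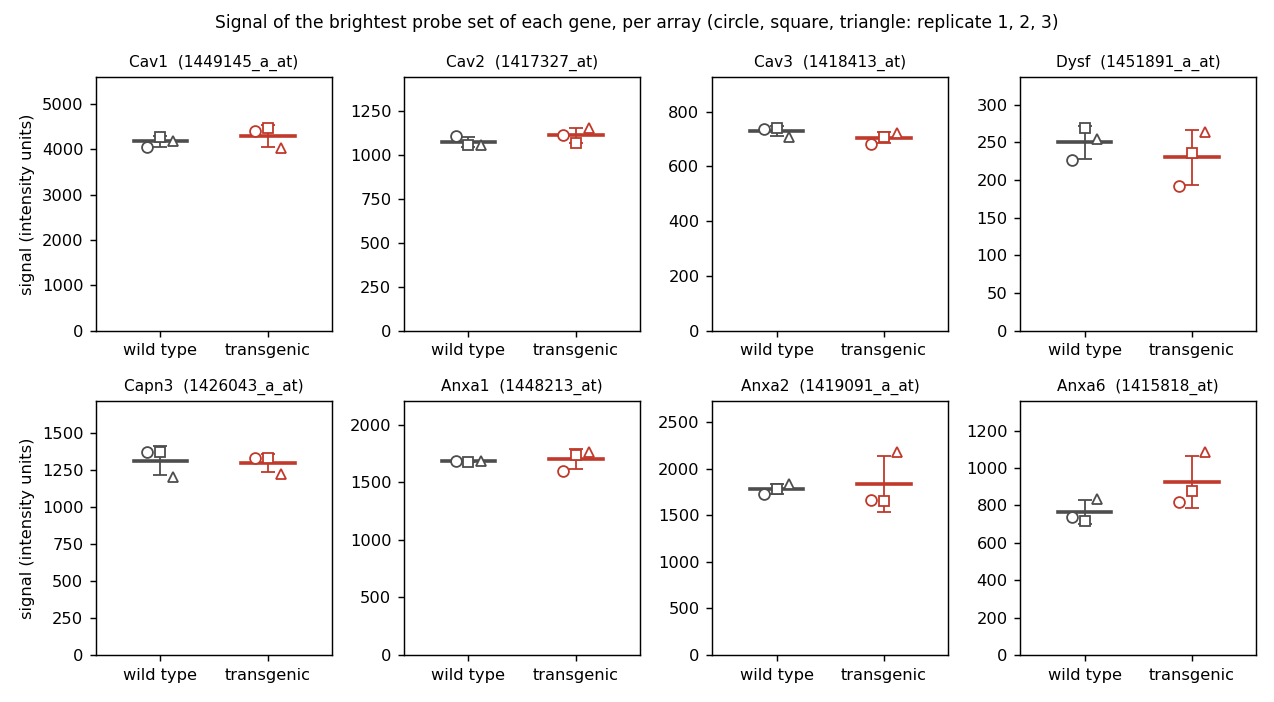
Signal in intensity units of the brightest probe set of each of the 8 genes, in each of 3 wild type (grey) and 3 transgenic (red) arrays; bars are means, whiskers SD, and marker shapes give the replicate number. In every panel the groups overlap, and transgenic replicate 3 is the highest array for Anxa2, at 2178, and Anxa6, at 1084.

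Cav1, whose product is the main coat protein of caveolae outside muscle fibres, gave signals of 4058, 4281 and 4182 in the wild type arrays and 4397, 4474 and 4027 in the transgenic ones. Transgenic replicate 3 was the lowest of the 6 arrays and the other two transgenic arrays the highest, so that the groups overlapped. The fold was 1.03 (95% interval 0.941 to 1.13, adjusted p 0.909). Cav2, which needs caveolin 1 to reach the cell surface, lies next to Cav1 in the genome. Its brighter probe set gave 1110, 1058 and 1059 in wild type and 1113, 1066 and 1155 in transgenic muscle. The ranges overlapped, with transgenic replicate 3 the highest array and wild type replicate 2 the lowest, and the fold was 1.03 (95% interval 0.929 to 1.15, adjusted p 0.916). The dim probe set of Cav2 gave 24.9, 58.7 and 22.4 against 51.8, 34.2 and 39.3. Its spread was wide, with wild type replicate 2 the highest array, and its log2 difference of 0.23 had an interval from -0.39 to 0.84. Without wild type replicate 2 that difference was 0.53 (adjusted p 0.792).

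Cav3, the caveolin of muscle fibres, was measured by 1 probe set, which had the smallest spread of the 14, a pooled SD of 0.0378 on the log2 scale. It gave 739, 741 and 709 in wild type and 683, 709 and 723 in transgenic muscle. The means were 730 ± 18.0 (SD, n = 3) and 705 ± 20.1 (SD, n = 3), and the groups overlapped. The fold was 0.967 (95% interval 0.864 to 1.08, adjusted p 0.917). The muscle caveolin and the 2 caveolins of other cells therefore all had intervals that reached no further than 1.15-fold up and 0.864-fold down on their brightest probe sets.

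Dysf encodes the ferlin that is central to membrane patching in muscle, and it had the largest negative difference among the brightest probe sets of the 8 genes. Its signal was 226, 269 and 254 in wild type and 191, 236 and 263 in transgenic muscle. Transgenic replicate 1 was the lowest array, and the remaining transgenic arrays lay within the wild type range. The fold was 0.921 (95% interval 0.756 to 1.12, adjusted p 0.872). The log2 difference of -0.12 was -0.00 without transgenic replicate 1 and -0.21 without transgenic replicate 3, so that single arrays set its size.

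Capn3 had 2 probe sets. The brighter one gave 1366, 1368 and 1199 in wild type and 1329, 1325 and 1221 in transgenic muscle. In both groups replicate 3 was the lowest array, and the fold was 0.987 (95% interval 0.878 to 1.11, adjusted p 0.974). The dimmer one, of a design type in which some probes also match other transcripts, gave 426, 430 and 397 against 402, 431 and 352. Its fold was 0.946 (95% interval 0.813 to 1.10, adjusted p 0.888). Both probe sets had negative differences whose intervals included no change.

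Anxa1 encodes an annexin of leukocytes and many other cells that binds membranes early after injury. Its wild type arrays were nearly identical, at 1680, 1679 and 1683, and the transgenic ones were 1600, 1738 and 1761. The wild type arrays lay inside the range of the transgenic ones, with a fold of 1.01 (95% interval 0.916 to 1.11, adjusted p 0.975). A further probe set of Anxa1 lay below the filter, with signals from 0.885 to 28.1 over the 6 arrays, and was not tested in this fit. With no filter it gave a log2 difference of -0.42 (95% interval -1.16 to 0.31, adjusted p 0.857).

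Anxa2 encodes the annexin that pairs with S100a10, and its brightest probe set was set apart by a single array. The signals were 1730, 1784 and 1831 in wild type and 1662, 1655 and 2178 in transgenic muscle. Transgenic replicate 3 was the highest of all arrays and the other two transgenic arrays were the lowest. The fold was 1.02 (95% interval 0.879 to 1.18, adjusted p 0.969). The log2 difference of 0.03 turned to -0.10 without transgenic replicate 3 (adjusted p 0.729). Neither of the 2 dimmer probe sets of Anxa2 passed. The tested one, of the same design type as the dimmer Capn3 probe set, ran from 68.6 to 106 over the 6 arrays. It had a fold of 1.04 at an adjusted p of 0.965. The other lay below the filter, with signals from 0.601 to 16.3. With no filter the latter gave a log2 difference of -0.52 (95% interval -1.09 to 0.04, adjusted p 0.748).

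Anxa6, an annexin with a doubled core that gathers at membrane lesions of muscle fibres, had the largest positive difference among the brightest probe sets of the 8 genes. Its brightest probe set gave 739, 714 and 836 in wild type and 819, 875 and 1084 in transgenic muscle. All transgenic arrays but replicate 1 lay above every wild type array, and replicate 1 lay below wild type replicate 3. The fold was 1.20 (95% interval 1.02 to 1.42, unadjusted p 0.0293, adjusted p 0.580) in limma. The next probe set gave 432, 457 and 551 in wild type and 529, 581 and 610 in transgenic muscle. Here too the groups overlapped through transgenic replicate 1 and wild type replicate 3. The fold was 1.19 (95% interval 1.02 to 1.40, unadjusted p 0.0343, adjusted p 0.597). The 2 probe sets measure the same RNA on the same arrays, so they are not separate evidence for a difference in the animals.

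The log2 difference of the brightest Anxa6 probe set was 0.27 over all arrays and 0.15 without transgenic replicate 3 (adjusted p 0.718). For the next probe set the values were 0.25 and 0.21. By a gap in the recorded hybridisation times the arrays were split here into 2 rounds. Replicates 1 and 2 of both genotypes were in the first and replicate 3 of both in the second. Within the first round the log2 differences of the 2 probe sets were 0.22 and 0.31, with adjusted p of 0.566 and 0.471, and the single pair of the second round gave 0.37 and 0.14. The sign of both was thus the same in each round, and neither passed in any alternative that was tested. The 2 dim probe sets of Anxa6 spread widely, from 5.37 to 63.7 and from 16.8 to 62.4 over the 6 arrays. Their log2 differences were 0.15 and -0.01, with 95% intervals of -0.79 to 1.10 and -0.83 to 0.81, too wide to place the gene's difference.

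**Figure D2:**
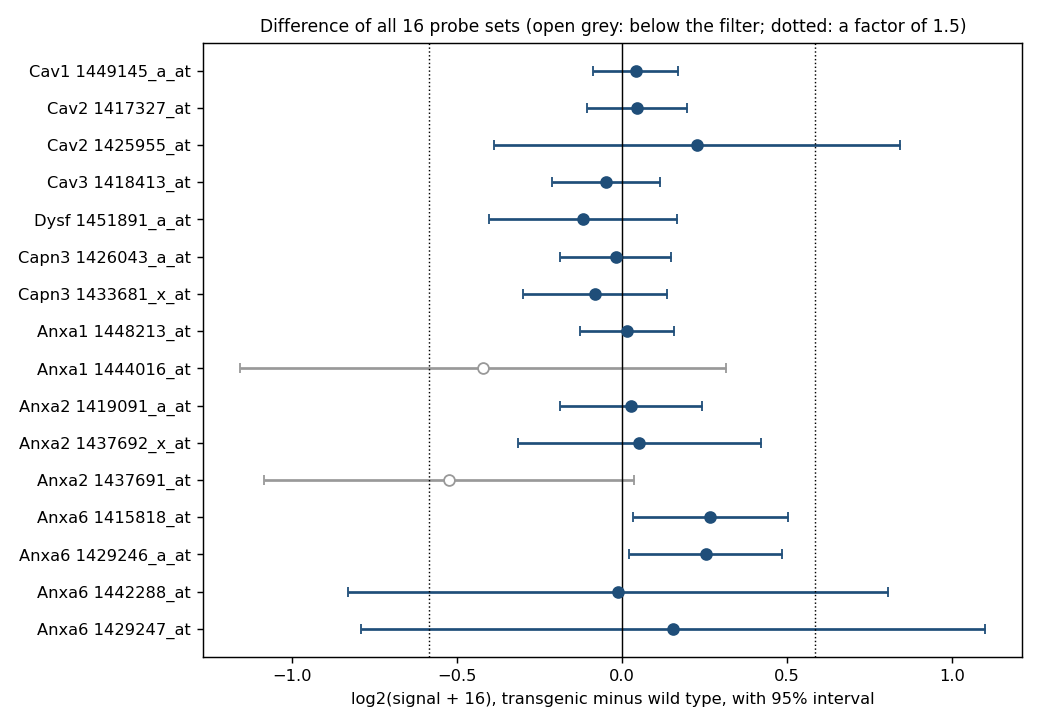
Difference between transgenic and wild type muscle on the log2(signal + 16) scale, with its 95% interval, for all 16 probe sets; open grey points lie below the filter and come from the fit with no filter. The intervals of 2 Anxa6 probe sets, at 0.27 and 0.25, leave out 0, and all others include it.

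**Figure D3:**
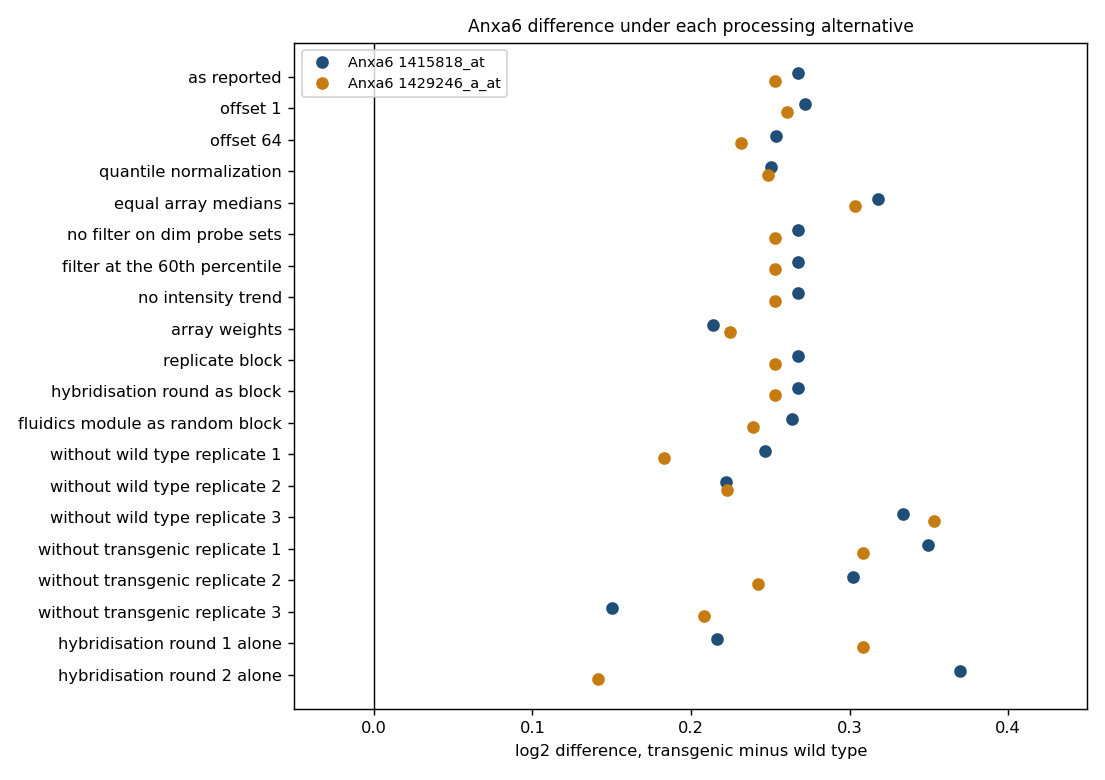
Log2 difference of the 2 bright Anxa6 probe sets as reported and under each processing alternative. The points lie between 0.14 and 0.37, and the lowest value of the brightest probe set, 0.15, is the one without transgenic replicate 3.

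The pathways around these genes were described with lists, each gene by its brightest tested probe set. Over 12942 genes the median log2 difference was -0.00, and 16 genes passed as higher and 3 as lower. Of the coat and shaping proteins of caveolae, 11 of 12 were tested, 0 passed, and the median was 0.00, with 6 positive and 5 negative differences. The median was -0.11 without wild type replicate 1 and -0.13 without transgenic replicate 3. Cavin1, the coat protein that caveolae need in every tissue, gave 571, 699 and 562 in wild type and 483, 521 and 606 in transgenic muscle, which is a log2 difference of -0.18 (adjusted p 0.745). Cavin4, the cavin of muscle, gave -0.05, and Cavin2 gave 0.00. By brightest probe sets the smallest p of the list was that of Ehd4, a membrane-shaping ATPase, at 425, 500 and 458 against 385, 368 and 406. Its arrays did not overlap, with a log2 difference of -0.24 at an adjusted p of 0.560. The next was Flot1, a flotillin of membrane domains, at 0.17 (adjusted p 0.745). Dimmer probe sets of 2 related ATPases had smaller p than Ehd4. One of Ehd1 gave a log2 difference of 0.64 (unadjusted p 0.00278, adjusted p 0.301), while the other Ehd1 probe sets gave 0.02, -0.09 and -0.24. One of Ehd2 gave -0.31 (unadjusted p 0.0175, adjusted p 0.526), while its others gave -0.12, 0.02 and 0.21. The probe sets of each gene thus differed in sign.

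Among the ferlins and partners of dysferlin, 6 of 9 were tested, and 0 passed. The median was -0.08, with 5 negative differences and 1 positive, and it was -0.21 without transgenic replicate 3, -0.01 without transgenic replicate 1 and -0.05 without transgenic replicate 2. Ahnak, a giant protein that binds dysferlin, had log2 differences of 0.03 on its brightest probe set and 0.01, 0.32 and 0.33 on dimmer ones, with adjusted p of at least 0.789. Bin1, which shapes the transverse tubules, gave -0.09 and the ferlin Myof -0.03. The smallest p values belonged to the dim ferlins Otof, at -0.33 (adjusted p 0.771), and Fer1l6, at -0.28 (adjusted p 0.789). Trim72, also called MG53, which helps vesicles reach a membrane wound in muscle, had a single probe set, which lay below the filter with a signal under 21.7 on all 6 arrays, and was not tested.

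The other calpains with their inhibitor calpastatin had a median of 0.01 over 9 genes, and 0 passed. With a single array left out the median lay between -0.0078, without wild type replicate 1, and 0.064, without transgenic replicate 2. The ubiquitous calpains Capn1 and Capn2 gave log2 differences of 0.16 and 0.01, their small subunit Capns1 -0.01 and calpastatin (Cast) 0.04. Capn6, a calpain without protease activity, had the smallest p of the list. Its signals were 168, 212 and 203 in wild type and 263, 204 and 262 in transgenic muscle, which is a log2 difference of 0.30 (unadjusted p 0.0462, adjusted p 0.626). Transgenic replicate 2 lay within the wild type range, and a dimmer probe set of Capn6 gave 0.17. Capn1 came next (adjusted p 0.774).

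Of the 14 genes for the ESCRT machinery, which pinches off damaged membrane, and for vesicle fusion, all were tested and 0 passed, with a median of 0.07. The median was 0.014 without transgenic replicate 3 and 0.029 without wild type replicate 2. Vamp7, a fusion protein of lysosomes, gave 509, 431 and 457 in wild type and 579, 556 and 544 in transgenic muscle. The groups did not overlap, and the log2 difference was 0.26 (unadjusted p 0.0141, adjusted p 0.496). Its dimmer probe set gave 0.16. Vamp3, a fusion protein of recycling vesicles, gave 0.21 (adjusted p 0.624), while its other probe sets ran from -0.48 to 0.15. Chmp4b, which forms the ESCRT filament, gave -0.07, and Pdcd6, the calcium sensor that recruits it, gave 0.06.

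**Figure D4:**
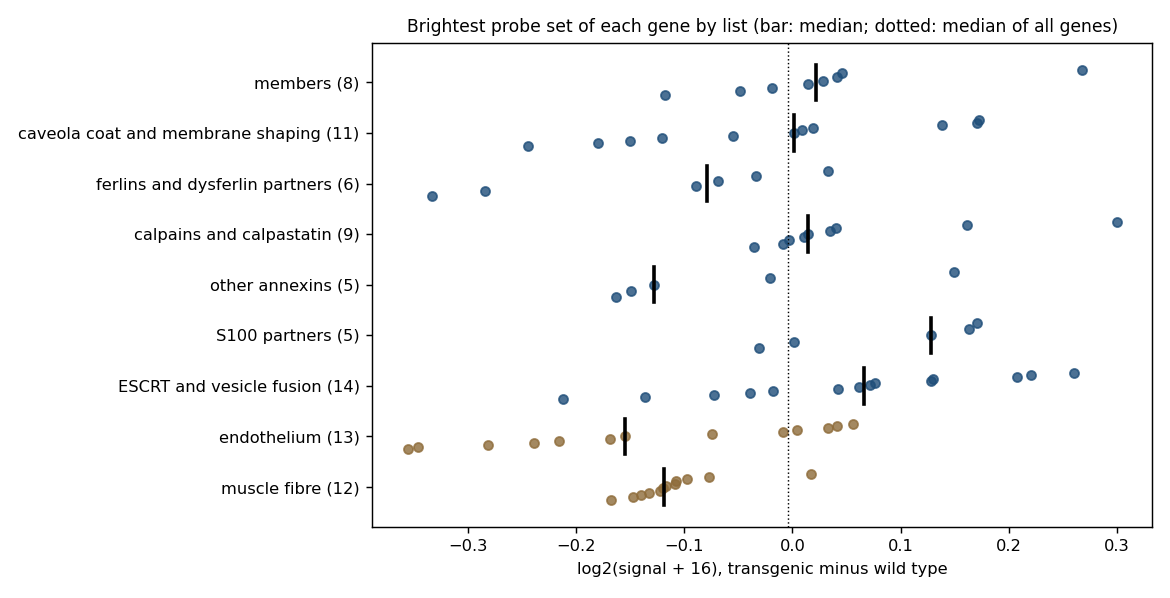
Difference on the log2(signal + 16) scale of the brightest tested probe set of each gene, by list, with the number of genes in brackets; the black bar is the list's median and the dotted line the median over 12942 genes. No gene shown passed the adjusted threshold, and the medians of the muscle fibre and endothelial markers are -0.12 and -0.15.

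The other annexins and the S100 proteins, small partners of annexins, showed no passing gene either. The median was -0.13 over 5 tested annexins, with 4 negative differences, and 0.13 over 5 tested S100 genes, with 4 positive ones. Single arrays set the size of both medians. That of the annexins was -0.03 without wild type replicate 1, -0.06 without wild type replicate 2, -0.04 without transgenic replicate 2 and -0.05 without transgenic replicate 3. That of the S100 genes was 0.05 without wild type replicate 1, 0.21 without transgenic replicate 2 and -0.02 without transgenic replicate 3. Anxa3 gave -0.15 (adjusted p 0.787). Anxa4 gave 0.15 (adjusted p 0.803) on its brightest probe set, and 0.20 (adjusted p 0.754) and 0.55 (unadjusted p 0.0452, adjusted p 0.623) on dimmer ones. Anxa5, an annexin that forms lattices on torn membrane, gave 1108, 1138 and 1246 in wild type and 966, 875 and 1318 in transgenic muscle. As for Anxa2, transgenic replicate 3 was the highest and the other two the lowest. S100a10 gave 1102, 886 and 1022 against 1071, 991 and 1348, a log2 difference of 0.17 (adjusted p 0.774). S100a4, a protein of motile and fibroblast cells, gave 0.16 (adjusted p 0.780). Probe sets of Anxa9, Anxa10 and Anxa13 lay below the filter.

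Transgenic replicate 3 was the highest of the 6 arrays for 8 of these 13 annexin and S100 genes together (Anxa1, Anxa2 and Anxa6 included), a count made after the values were seen. It was also the highest array for 22.3% of all 12942 genes, the largest share of any array, where the others had 12.9% to 18%. The same array was the lowest for 2572 of all genes, again the largest count, where the others had 1944 to 2270. The 8 were Anxa1, Anxa2, Anxa5, Anxa6, S100a10, S100a4, S100a6 and S100a13. Some other lists had high shares on this array too. It was highest for 7 of 14 ESCRT and fusion genes, 3 of 6 ferlin and partner genes and 4 of 11 caveola genes. The calpain list, at 2 of 9 genes or 22.2%, was near the share over all genes. Among markers this array was the highest for 4 of 9 of fibroblasts, 2 of 7 of adipocytes and 2 of 8 of smooth muscle and pericytes. The counts were 1 of 13 for endothelium, 1 of 9 for macrophages and 0 of 12 for muscle fibres. They were 0 of 5 each for neutrophils and satellite cells. The summed fibroblast marker signal of this array, 29768, was within the wild type range of 27461 to 29964. The summed smooth muscle signal, 8540, of which Rgs5 made up 4429, was above the other 5 arrays. Whether other cells in this pool bear on its annexin values was not tested.

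**Figure D5:**
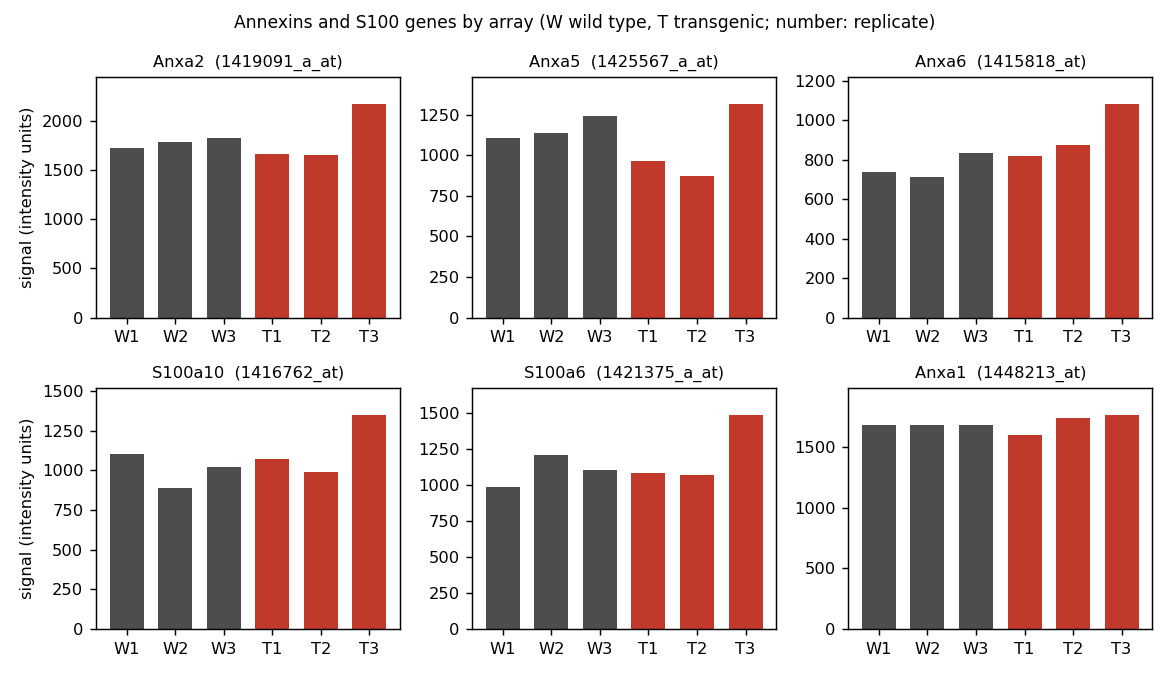
Signal in intensity units of 6 of the annexin and S100 genes that were highest on transgenic replicate 3, by array (grey wild type, red transgenic). Bars for transgenic replicate 3 reach 2178 for Anxa2, 1318 for Anxa5, 1084 for Anxa6, 1348 for S100a10 and 1483 for S100a6, while Anxa1, at 1761, is close to transgenic replicate 2, at 1738.

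Markers of the cells that the tissue holds were compared beside these results. The tissue label was borne out by the fibre markers Tnnt3, Tnni2 and Mylpf, with wild type means of 23492, 22902 and 23431. All 12 muscle fibre markers were tested, 0 passed, and 11 had negative differences, with a median of -0.12. At an unadjusted p under 0.05, 7 of the 12 were lower and 0 higher, where 549 of all 12942 genes were lower. Their summed signal was 229642 to 232112 in wild type and 210024 to 217918 in transgenic muscle, and such bright signals can be compressed by the scanner. Of the 13 endothelial markers 0 passed and 9 had negative differences, with a median of -0.15. By the same unadjusted threshold 2 of the 13 were lower and 0 higher, beside the 549 of all 12942 genes that were lower. The sum of the endothelial markers was 3123 to 3518 in wild type and 2958 to 3253 in transgenic muscle. Cav1 and Cav2, which endothelium expresses, had differences of 0.04 and 0.05 beside these. In bulk muscle, fewer cells of a type and less RNA per cell cannot be told apart, and the part of either in the caveolin values was not tested. Adipocyte markers, another source of Cav1, had a median of 0.08 over 7 genes, with sums of 19762 to 21162 and 19774 to 21426. Medians were -0.01 over 9 fibroblast, -0.05 over 8 smooth muscle and pericyte, -0.07 over 9 macrophage, -0.07 over 5 neutrophil and 0.06 over 5 satellite cell markers, with 0 passing in each.

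The genes whose values followed those of Anxa6 and Dysf most closely were found by the root mean square difference of log2 values over the 6 arrays, after each probe set was centred on its mean. For Anxa6 they were Qsox1, at 0.0257, Lgals3bp, at 0.0438, and Adgrg1, at 0.0448, where the median over all named probe sets was 0.261. For Dysf they were Nenf, at 0.0303, Atl1, at 0.0430, and Ccdc50, at 0.0436, beside a median of 0.231. No other gene was used as the starting point, so how small such values are for genes in general was not examined.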

How the data were processed

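RNA of 6 animals per pool was hybridised to 6 Affymetrix arrays, 3 of each genotype. Each deposited value is the linear intensity of a probe set. GCOS 1.1.1 is named in the submitters' processing notes, and the sources used here do not give its settings. Every array had a trimmed mean of 150.0 and a median of 34.0 to 38.4, and no detection calls were used, so that a dim probe set is not called absent. The deposited run information files, of other content than expression, gave a hybridisation time and a fluidics module for each array. The arrays were split here into 2 hybridisation rounds at a gap between these times, each round with both genotypes. There were 4 fluidics modules, each with a single genotype. The chip lot field of these files held a different entry for each array, beginning differently in each genotype and left unexplained.

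The 64 control rows of 45101 were dropped. All tests and folds used log2(signal + 16), which understates differences of dim probe sets. The 27022 probe sets above the 40th percentile of the mean were fitted with limma 3.58.1 in R 4.3.3 (no covariates, intensity trend, two-sided, Benjamini-Hochberg over all). The labels call the pools biological replicates, and p-values measure the spread between pools. The brightest probe set stood for a gene in lists. Probe sets of the design type with some probes that also match other transcripts were kept. Among them were the brightest of Vamp3 and of Ehd1 and the Anxa4 probe set at 0.55. The text names all member probe sets, and of each list the genes past the threshold or else the 2 with the smallest p, with others chosen for their role after the values were seen. Markers are the brightest of each list. The 8 genes and the lists were chosen with earlier results of these data known.

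Gene names are those of the platform annotation, brought up to date by gene ID with a RefSeq table of GRCm38.p6 (34754 of 34945 probe sets with 1 symbol matched). Promoters are RefSeq's of that build. List genes with no probe set of 1 symbol (such as Pacsin2, Ano5, Anxa11 and S100a11) were not analysed here. On simulated data for 27022 probe sets of this comparison the fit recovered 16% of 50 set to a log2 change of 0.5, 50% of 50 at 1, 70% at 1.5 and 84% at 2, with 8 of 118 calls false. The alternatives were other offsets (1 and 64), normalizations, filters, variance models, blocks and left-out arrays. Same-numbered arrays deviated together little, with correlations of 0.00, 0.06 and 0.05 over probe sets. Arrays of different number gave -0.08 to 0.02. The numbers were not treated as pairs, and a fit with them as a block is among the alternatives.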

Additional observations from a re-analysis of the deposited data

How the results depend on the processing

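Over 18 alternatives 0 member probe sets passed. Of 249 member differences under them, 227 had the sign of the reported value and 22, none of them called, had the other one; the 2 that moved by more than their standard error were those of the brightest Anxa2 probe set, at -0.10 without transgenic replicate 3 (-0.10 to 0.094 with an array left out) and -0.082 in hybridisation round 1 alone. The smallest member adjusted p was 0.138, for Anxa6 with a random block for the fluidics module, where each module held 1 genotype and the correlation was -0.44. The count over all tested probe sets was 33 as reported, 50 with equal array medians, 17 with no filter, 1 without the intensity trend, 297 with the module block and 18 to 39 with an array left out. With the replicate number as a block it was 36, with the hybridisation round as a block 47, and 0 members passed in either. The brightest Anxa6 probe set had an adjusted p of 0.342 and 0.292 in these limma fits, beside 0.580 as reported. The causes were not tested.

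List medians moved as follows. Calpains were at 0.065 with equal array medians and 0.057 in round 1 alone, the ferlin list at -0.18 in round 1 alone, and the caveola list at -0.083 with array weights. With an array left out the medians ran from -0.13 to 0.014 for the caveola list, -0.21 to -0.012 for ferlins, -0.0078 to 0.064 for calpains, -0.024 to 0.21 for S100 genes, -0.11 to -0.026 for the other annexins and 0.014 to 0.078 for ESCRT and fusion genes. The caveola median also changed sign with quantile normalization, at -0.016. The single pair of round 2, which has no test, moved 5 member probe sets by more than their pooled SD, Cav1 to -0.05, Cav2 to 0.12, Cav3 to 0.03, Anxa2 to 0.25 and a dim Anxa6 probe set to -1.37. Dysf turned to 0.049 there, a dim Cav2 probe set went to 0.52, and the second brightest Anxa6 probe set went from 0.25 to 0.14. These moves were above their standard error but within that SD. With 3 arrays a group, a 95% interval reached 0.22 log2 units to either side of the value at the median member probe set, and 0.37 at the median of all tested probe sets. Round 1 and round 2 alone were chosen after the data were seen.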
